A study of Mus musculus with 12 samples.

Results

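Thymic iNKT2 and iNKT17 cells of wildtype C57BL/6 mice were compared by the accessibility of their chromatin, over the 58866 of 63309 listed 500 bp regions that had a mean of at least 5 normalized insertions per kb in either subset. The measurement was ATAC-seq, in which a transposase inserts adapters into open DNA, and 4 of the 12 libraries enter the comparison, 2 of each subset. The cells came from untreated thymocytes of mice 8–9 weeks of age. The labels number the replicates as mice, while the methods describe pooled thymi. iNKT2 cells were sorted as CD122-, ICOS+, Izumo1r+ and CD138-, and iNKT17 cells as CD122-, ICOS+, Izumo1r- and CD138+. The subsets were then mixed, transposed in 1 reaction and sorted again by ICOS and CD138 alone, because the signal of the other stains was lost, so that in this last sort iNKT2 cells were told from iNKT1 cells by ICOS only. Hivep3-/- mice on the C57BL/6 background, treated in the same way, gave 2 libraries of each subset in which the same contrast was repeated. Wildtype iNKT1 libraries are given beside a result for reference.

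iNKT cells are T cells with a nearly invariant T cell receptor that recognizes lipids presented by CD1d. In the thymus they mature into subsets that resemble helper T cells: iNKT2 cells make IL-4, and iNKT17 cells make IL-17. A cell can use a gene only where its chromatin gives access, so that promoters and the distal regulatory regions around a gene tend to open together in the cells that express it or are poised to do so.

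The sequences below show the open stretches that the results turn on, from the GRCm38.p6 (mm10) reference. Each is the central 200 bases of a region in an intron or between genes, on the plus strand, or the 200 bases before the start of a gene, on the strand of the gene, from RefSeq. Capitals mark 3 short motifs on either strand: TNGGTCA, the core that ROR proteins bind and that related nuclear receptors share, TCAAAGG, bound by TCF and LEF proteins, and AGATAAG, bound by GATA proteins. The first group was more accessible in iNKT17 cells. It holds an intron of 4930519G04Rik (chr5:114877521-114877720), an intron of Slc22a15 (chr3:101881878-101882077), an intron of Il23r (chr6:67475729-67475928), a region 94.4 kb from Synm (chr7:67854338-67854537), and the promoters of Il17a (chr1:20730705-20730904) and Il17f (chr1:20784271-20784470).
4930519G04Rik intron: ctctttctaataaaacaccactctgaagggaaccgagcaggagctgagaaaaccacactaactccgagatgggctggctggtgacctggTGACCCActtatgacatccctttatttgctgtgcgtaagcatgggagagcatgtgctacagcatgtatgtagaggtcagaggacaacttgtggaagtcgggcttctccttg
Slc22a15 intron: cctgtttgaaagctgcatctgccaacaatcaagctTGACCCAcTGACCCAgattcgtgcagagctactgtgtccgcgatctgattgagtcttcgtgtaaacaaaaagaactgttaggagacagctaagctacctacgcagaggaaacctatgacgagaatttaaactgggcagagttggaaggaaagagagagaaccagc
Il23r intron: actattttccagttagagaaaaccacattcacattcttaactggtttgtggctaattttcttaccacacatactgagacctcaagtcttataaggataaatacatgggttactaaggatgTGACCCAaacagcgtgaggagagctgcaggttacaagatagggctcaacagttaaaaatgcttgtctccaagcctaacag
Synm distal: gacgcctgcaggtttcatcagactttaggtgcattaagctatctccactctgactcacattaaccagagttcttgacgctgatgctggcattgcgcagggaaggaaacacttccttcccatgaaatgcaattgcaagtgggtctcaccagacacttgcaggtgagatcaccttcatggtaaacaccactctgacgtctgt
Il17a promoter: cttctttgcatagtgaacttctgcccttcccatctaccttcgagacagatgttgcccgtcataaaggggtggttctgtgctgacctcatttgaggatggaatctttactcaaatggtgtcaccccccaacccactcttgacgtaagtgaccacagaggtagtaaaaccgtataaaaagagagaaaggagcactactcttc
Il17f promoter: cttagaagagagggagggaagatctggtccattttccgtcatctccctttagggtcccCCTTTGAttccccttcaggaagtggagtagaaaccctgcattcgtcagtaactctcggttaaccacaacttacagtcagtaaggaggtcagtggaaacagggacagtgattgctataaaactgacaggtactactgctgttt

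The second group was more accessible in iNKT2 cells. It holds a region between Il13 and Il4 (chr11:53630958-53631157), a region 1.02 kb from the start of Slamf6 (chr1:171916146-171916345), introns of Il12rb2 (chr6:67348161-67348360) and Il10ra (chr9:45264550-45264749), and the promoter of Ifng (chr10:118440846-118441045).
Il13 distal: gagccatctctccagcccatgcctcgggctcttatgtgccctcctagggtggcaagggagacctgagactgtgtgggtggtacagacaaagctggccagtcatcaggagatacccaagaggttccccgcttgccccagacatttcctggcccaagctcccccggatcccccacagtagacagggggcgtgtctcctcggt
Slamf6 distal: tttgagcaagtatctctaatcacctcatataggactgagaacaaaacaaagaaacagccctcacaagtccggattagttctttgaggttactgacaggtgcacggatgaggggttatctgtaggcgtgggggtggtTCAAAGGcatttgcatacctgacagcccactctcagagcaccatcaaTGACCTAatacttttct
Il12rb2 intron: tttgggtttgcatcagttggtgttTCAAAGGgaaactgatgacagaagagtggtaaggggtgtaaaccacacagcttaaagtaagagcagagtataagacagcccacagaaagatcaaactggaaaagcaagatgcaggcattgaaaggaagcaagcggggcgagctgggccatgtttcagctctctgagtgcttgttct
Il10ra intron: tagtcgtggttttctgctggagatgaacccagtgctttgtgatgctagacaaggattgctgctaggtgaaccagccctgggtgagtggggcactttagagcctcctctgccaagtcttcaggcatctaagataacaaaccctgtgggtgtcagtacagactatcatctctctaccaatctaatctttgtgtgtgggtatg
Ifng promoter: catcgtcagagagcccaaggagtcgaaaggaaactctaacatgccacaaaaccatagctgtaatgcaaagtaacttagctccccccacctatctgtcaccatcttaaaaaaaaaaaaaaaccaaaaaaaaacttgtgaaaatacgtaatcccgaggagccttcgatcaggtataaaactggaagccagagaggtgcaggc

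In these windows the ROR letters stood in 3 of the 6 iNKT17 sequences, with 2 copies in Slc22a15, and in 1 of the 5 iNKT2 sequences, Slamf6. The TCF letters stood in the Slamf6 and Il12rb2 windows and in the Il17f promoter. No GATA match was found in any of these windows.

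Of the 58866 tested regions, 4544 were at least 3-fold more accessible in iNKT2 cells at an adjusted p under 0.1 (7.72% of the tested regions) and 4999 in iNKT17 cells (8.49%). The adjusted p alone was under 0.1 in 30800 regions, 52.3% of those tested, so that the 3-fold limit decided most calls. Differences were larger on the iNKT17 side. The median log2 difference, iNKT2 minus iNKT17, was 2.32 in regions higher in iNKT2 and -3.20 in regions higher in iNKT17, and at least 8-fold differences made up 25.8% and 53.8% of the calls, 1173 and 2687 regions. At least 32-fold differences were found in 175 and 1312 regions. With a pseudocount of 5, which shrinks the differences of faint regions, 957 and 2319 regions were called, and the share higher in iNKT2 was 29.2% of the calls against 47.6%. At 2-fold in place of 3-fold the balance turned, with 8064 regions higher in iNKT2 and 7328 in iNKT17 (52.4% in iNKT2). In a bulk library, a region that is open in fewer cells cannot be told apart from one that is less open in every cell.

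Regions higher in iNKT17 were low in iNKT2 and iNKT1 cells, with medians of 16.2 insertions per kb in iNKT17, 1.69 in iNKT2 and 1.99 in iNKT1 cells. Regions higher in iNKT2 had medians of 12.7 in iNKT2, 2.40 in iNKT17 and 5.32 in iNKT1 cells, so that many were shared with iNKT1 cells: 51.3% had an iNKT1 mean of at least 5, against 28.5% of the regions higher in iNKT17, and in 22.9% the iNKT1 mean was above that of iNKT2. Promoters made up 9.35% and 10.8% of the calls in iNKT2 and iNKT17 but 35.3% of the tested regions, whereas introns made up 53.5% and 54.7% against 38.1%. The 46467 regions with a mean of at least 5 in both subsets held 951 of the calls in iNKT2 and 936 of those in iNKT17, and the rest passed the filter only through the subset in which they were higher. The 2 libraries of a subset correlated at r = 0.981 for iNKT2 and 0.976 for iNKT17 over the tested regions, and an iNKT2 with an iNKT17 library at 0.594. These are correlations across regions, which are not independent.

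**Figure D1:**
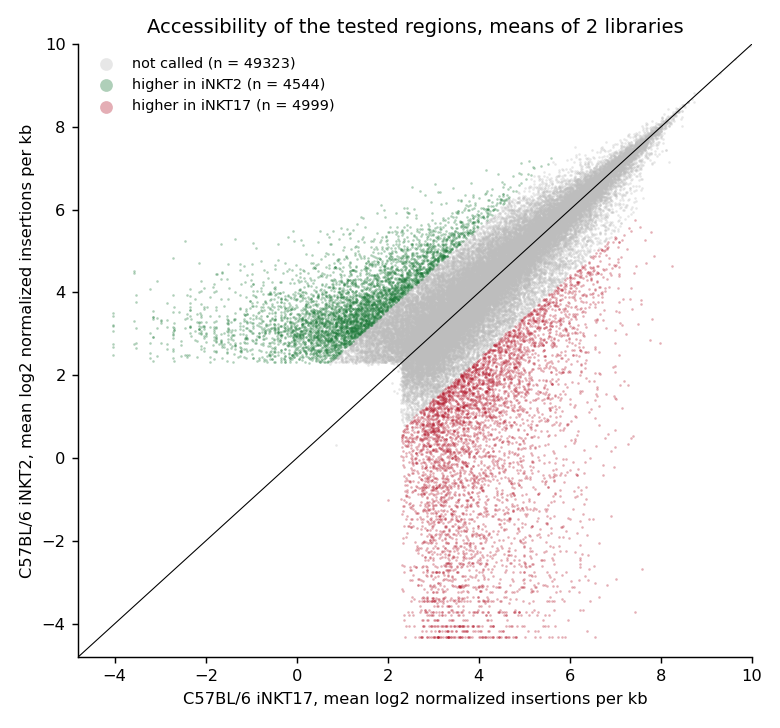
Mean log2 normalized insertions per kb of each of the 58866 tested regions in C57BL/6 iNKT17 (x axis) and iNKT2 cells (y axis), each the mean of 2 libraries, with the line of equal values. Of the 4999 regions higher in iNKT17, 38.1% had an iNKT2 mean under 1 insertion per kb. Of the 4544 higher in iNKT2, 15.4% had an iNKT17 mean under 1.

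The subset labels were checked at marker genes. At the Il4 promoter (chr11:53618197-53618696), which overlaps the start of the gene of the type 2 cytokine IL-4, accessibility was 46.5 and 43.0 in the iNKT2 libraries, 5.11 and 4.81 in iNKT17, and 39.3 and 34.7 in iNKT1, in normalized insertions per kb as for all values that follow. The log2 difference between iNKT2 and iNKT17 was 3.17 ± 0.28 (SE, n = 2 per subset, limma adjusted p = 1.06e-06). A second Il4 promoter region next to it was not called, with 61.7 and 45.9 against 29.7 and 27.3 (difference 0.90 ± 0.15). Sdc1, which encodes the CD138 of the sort, went the other way, with 16.0 and 12.2 in iNKT2 and 81.2 and 71.1 in iNKT17 at its promoter (chr12:8771101-8771600, difference -2.44 ± 0.16). The largest of its 8 called regions, in an intron, measured 2.85 and 2.97 against 96.3 and 93.4. Slamf6, a receptor of early iNKT cells, had 19.4 and 19 at its promoter in iNKT2 and 10.6 and 9.98 in iNKT17, a difference of 0.90 ± 0.20 that lay under 3-fold, and its region 1.02 kb away was called, with 8.24 and 8.96 against 1.96 and 1.67. Izumo1r, also used in the sort, had 5 of 7 regions higher in iNKT2, with 44.6 and 45.7 against 5.30 and 4.58 at one of its promoter regions (difference 3.19 ± 0.15). Because CD138 and Izumo1r were gated on, Sdc1 and Izumo1r check the sort and are no finding.

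Some genes that define iNKT2 cells were open in both subsets. Gata3, the master factor of type 2 responses, had 98.3 and 88.9 at its promoter in iNKT2 and 87.3 and 83.8 in iNKT17, a log2 difference of 0.13 ± 0.08 (adjusted p = 0.233). Its only called region among 15 lay 25.6 kb from a start and was higher in iNKT17, with 2.99 and 1.34 against 20.1 and 18.6. Zbtb16, which encodes the iNKT factor PLZF, had 126 and 121 against 120 and 116 at its promoter (difference 0.06 ± 0.10), and 3 of its 86 regions were called, 2 of them higher in iNKT2. One of these 2, an intron region with a difference of 1.59 ± 0.17, fell under 3-fold when iNKT2 replicate 2 (1.56) or iNKT17 replicate 2 (1.46) was left out. Il17rb had none of its 8 regions called, with promoter values of 29.1 and 31.8 in iNKT2 and 27.2 and 28.1 in iNKT17.

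**Figure D2:**
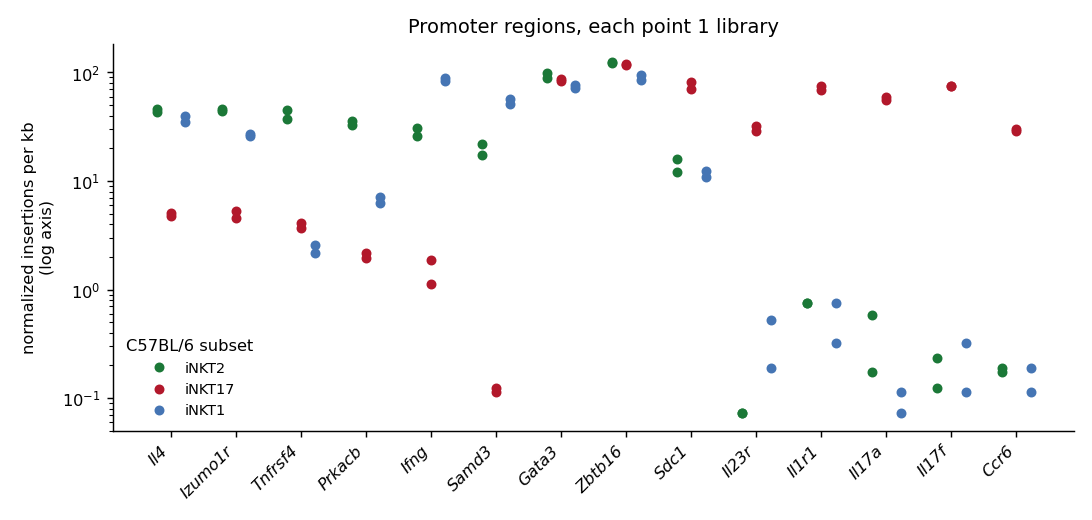
Normalized insertions per kb (log axis) at the promoter regions of 14 genes in C57BL/6 iNKT2, iNKT17 and iNKT1 libraries, each point 1 library. Il4 lies near 40 in iNKT2 and near 5 in iNKT17, Gata3 and Zbtb16 lie close together in both, and Il17a, Il17f, Il23r and Ccr6 are at or above 28.9 in iNKT17 and under 1 in the other subsets.

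Among the type 2 and iNKT2 genes, 29 of 225 regions (12.9%) were higher in iNKT2 and 7 (3.11%) in iNKT17, beside 7.72% and 8.49% of all tested regions. Il4 held 8 of these calls among 14 regions and the neighboring Il13, which encodes IL-13, held 6 of 10, and their 10 kb margins share regions. The sequence printed above between them had 73.7 and 75.4 in iNKT2, 10.4 and 12.8 in iNKT17, and 86.4 and 104 in iNKT1 (difference 2.69 ± 0.16). All 14 regions of Il4 had a positive difference. An intron of Rad50, the neighbor that carries the locus control region of the type 2 cytokines, measured 78.4 and 80.0 against 12.9 and 16.7 (difference 2.44 ± 0.16). A Rad50 exon went the other way, with 0.174 and 0.304 in iNKT2 and 17.1 and 13.1 in iNKT17 (difference -6.03 ± 0.74). Il5, the next gene of the cluster, was the reverse: its promoter had 8.14 and 10.8 in iNKT2 and 77.8 and 83.5 in iNKT17 (difference -3.10 ± 0.27), with 0.927 and 1.77 in iNKT1. Il4ra, the receptor for IL-4, also had its 2 called regions higher in iNKT17. Plac8 had all 4 regions higher in iNKT2, 1 of which differed by genotype and is described below, and Cd4 had a promoter at 20.5 and 15.4 against 2.75 and 4.38 (difference 2.36 ± 0.35).

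The largest promoter differences toward iNKT2, by the fixed ranking, were at Prkacb, Crybg2, Tnfrsf4, Ifng, Izumo1r, Il4, Calhm1, Enthd1, Samd3 and Rassf4, with log2 differences from 2.79 to 7.35. Tnfrsf4, which encodes the co-stimulatory receptor OX40, had 45.5 and 36.9 in iNKT2, 4.08 and 3.68 in iNKT17, and 2.56 and 2.18 in iNKT1 (difference 3.40 ± 0.22). In iNKT1 it was as low as in iNKT17, and so was Calhm1: Calhm1, an ion channel gene, had 26.7 and 24.4 against 0.580 and 1.67 in iNKT17 and 0.748 and 1.99 in iNKT1. Prkacb, a catalytic subunit of protein kinase A, had 32.7 and 35.4 in iNKT2, 2.15 and 1.96 in iNKT17, and an iNKT1 level between them of 6.29 and 7.11. The promoters of Ifng, the gene of interferon-γ, and Samd3 were highest in iNKT1. Ifng had 30.6 and 25.8 in iNKT2, 1.13 and 1.88 in iNKT17, and 89.3 and 84.2 in iNKT1 (difference between iNKT2 and iNKT17 of 4.27 ± 0.24). Samd3 had 21.7 and 17.4 in iNKT2, 0.115 and 0.123 in iNKT17, and 57.3 and 51.3 in iNKT1.

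Away from promoters, the 10 largest differences toward iNKT2 lay in introns of Il10ra, Garnl3, Tmod1, Inpp4b, Ttc3 and Susd1, in an exon of Rrp1, and between genes near Duxbl3, Qrsl1 and Lrrc3b, with log2 differences from 3.59 to 7.69. The intron of Il10ra, which encodes the IL-10 receptor, had 67.3 and 70.9 in iNKT2, 3.03 and 4.24 in iNKT17, and 4.91 and 8.26 in iNKT1 (difference 4.27 ± 0.32), and 5 of the 7 regions of the gene were higher in iNKT2. Tmod1, an actin-capping protein, was likewise low outside iNKT2, with 58.8 and 54.9 against 3.03 and 2.29 in iNKT17 and 5.04 and 7.42 in iNKT1 (difference 4.43 ± 0.25). The region 82.7 kb from Duxbl3 had 39.5 and 35.7 against 0.267 and 0.123, and in iNKT1 2.16 and 2.43. Inpp4b, a phosphatase of inositol lipids, had 89.9 and 84.9 against 6.59 and 6.51, and in iNKT1 96.5 and 98.8, so that its intron was lower in iNKT17 than in both other wildtype subsets.

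Of 84 regions at 18 iNKT1 genes, 25 (29.8%) were higher in iNKT2 and 9 (10.7%) in iNKT17, beside 7.72% and 8.49% of all tested regions. Il12rb2, a chain of the IL-12 receptor, had 7 of 9 regions higher in iNKT2, and its intron region shown above measured 68.6 and 63.2 in iNKT2, 5.84 and 4.48 in iNKT17 and 100 and 93.1 in iNKT1 (difference 3.69 ± 0.25). Ccl5, a chemokine of cytotoxic cells, had all 5 regions higher in iNKT2, the largest at 38.4 and 47.1 against 2.44 and 1.67, with 121 and 124 in iNKT1. Cxcr3, Xcl1 and Nkg7 showed the same order of iNKT1 above iNKT2 above iNKT17. An intron of Tbx21, which encodes T-bet, the factor of iNKT1 cells, had 12.2 and 16.7 in iNKT2, 1.41 and 0.655 in iNKT17, and 96.4 and 105 in iNKT1 (difference 3.90 ± 0.36). Calls toward iNKT17 were at Gzmb (3), Hopx (2), Ifng, Il2rb, Klrk1 and Txk (1 each), and Hopx, Ifng, Il2rb and Txk had 1 toward iNKT2 as well. At the promoter of Gzmb, which encodes granzyme B, iNKT2 had 7.59 and 4.58, iNKT17 53.9 and 57.8, and iNKT1 97.4 and 95.1 (difference -3.24 ± 0.28), and Klrk1, which encodes NKG2D, had 0.333 and 0.510, 9.89 and 9.61, and 26.2 and 23.2. Summed over the 18 promoters of the list, accessibility was 556 to 579 in iNKT2, 648 to 653 in iNKT17 and 1120 to 1130 in iNKT1. The part of iNKT1 cells within the iNKT2 gate in these values was not tested.

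On the iNKT17 side, 143 of the 237 regions (60.3%) at 24 iNKT17 genes were higher in iNKT17, against 8.49% of all tested regions, and 8 (3.38%) were higher in iNKT2. The list was drawn up knowing this subset and earlier results of these data, so that its share is a description and no test. It holds Sdc1, which was gated on, with 8 of 10 regions called, and Pxdc1 with 10 of 10. Its median log2 difference was -2.17 against 0.03 over all tested regions. The cytokine genes were nearly shut in iNKT2. Il17a had 0.174 and 0.580 in iNKT2 and 55.8 and 60.0 in iNKT17 at its promoter (difference -7.51 ± 0.88), and Il17f 0.123 and 0.234 against 75.8 and 74.4 (difference -8.79 ± 0.71). An intron of Il22, the gene of IL-22, had 0.889 and 0.394 against 75.0 and 76.0.

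The receptors through which type 17 cells are activated opened along their length. Il1r1, the IL-1 receptor, had 22 of 24 regions higher in iNKT17, with a promoter of 0.758 and 0.752 in iNKT2, 74.6 and 68.9 in iNKT17, and 0.748 and 0.319 in iNKT1 (difference -6.57 ± 0.40). Il23r, the IL-23 receptor, had 12 of 14, with a promoter at 0.0723 in both iNKT2 libraries and at 32.3 and 29.0 in iNKT17 (difference -8.72 ± 0.76), and its intron shown above at 0.527 and 0.155 against 73.4 and 69.3. The single Il23r call in the other direction lay beyond its 3′ end, 39.0 kb from the start of Il12rb2, and fell under 3-fold, to 1.24, without iNKT17 replicate 2. Ccr6, the chemokine receptor of type 17 cells, had all 5 regions higher in iNKT17, with 0.174 and 0.191 against 30.0 and 28.9 at the promoter. Blk, a kinase of the Src family, had 19 of 21. Of the 24 listed genes, 4 had no called region. Maf and Ccr2 were among them, although both are used by iNKT17 cells, and the Maf promoter had 85.2 and 97.4 in iNKT2 and 98.2 and 95.7 in iNKT17 (difference -0.09 ± 0.09). Nrp1 leaned the other way, with 3 of 13 regions higher in iNKT2 and 1 higher in iNKT17. Rora, which encodes the nuclear receptor RORα, was mixed, with 13 of 45 regions higher in iNKT17 and 4 higher in iNKT2.

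**Figure D3:**
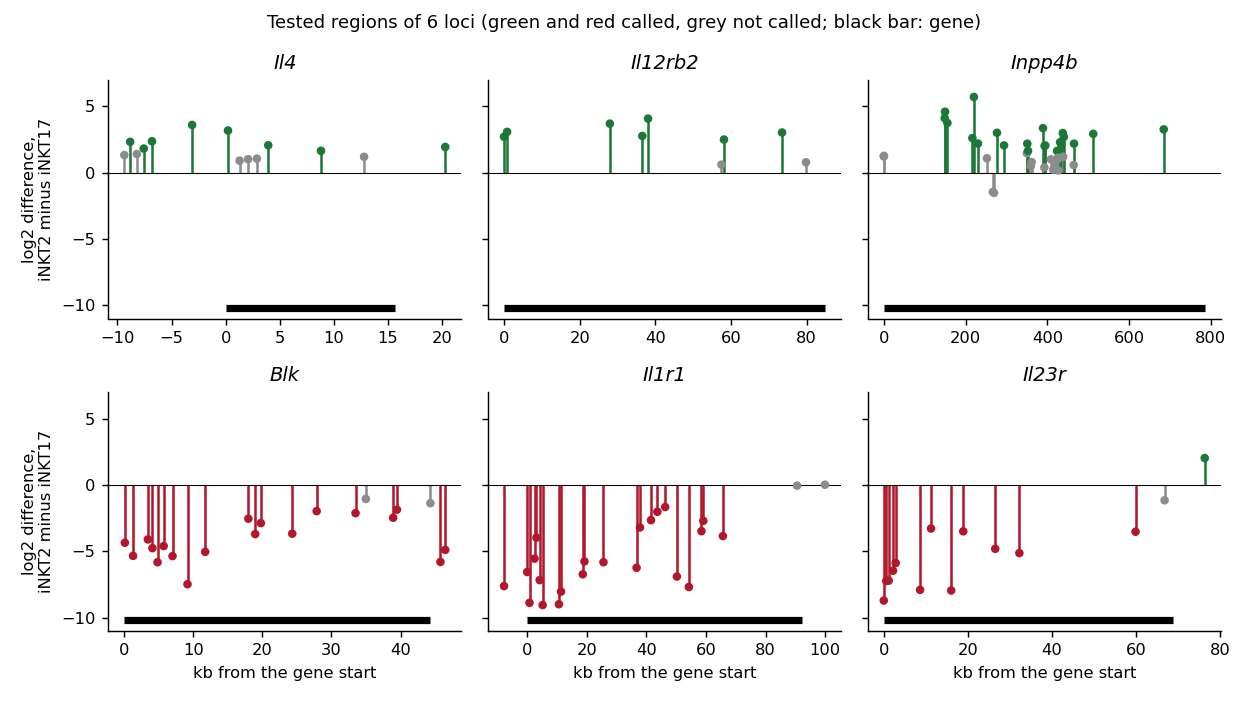
Log2 difference, iNKT2 minus iNKT17, of the tested regions of 6 loci by their distance in kb from the gene start, with called regions in green (higher in iNKT2) and red (higher in iNKT17), others in grey, and the gene as a black bar. At Blk 19 of 21 regions are red and at Il1r1 22 of 24, and Il4 has 8 green regions and none red.

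The largest promoter differences toward iNKT17 were at Prr29, Il17f, Il1r1, Il17a, Slc7a14, Tex2, Lonp2, Pxdc1, Ppp1r14c and Spon2. Prr29 had 3.82 and 3.04 in iNKT2 and 126 and 151 in iNKT17 (difference -5.34 ± 0.31). Lonp2, a protease of peroxisomes, had 0.429 and 0.394 against 49.5 and 39.9 (difference -6.76 ± 0.41). Both iNKT2 libraries were at the lowest value of their library, 0.0504, at Slc7a14, which had 49.9 and 57.4 in iNKT17, so that no fold is given, and 1 of them was at that level at Ppp1r14c. In all, 88 of the regions higher in iNKT17 had both iNKT2 libraries at their lowest value and 8 of the regions higher in iNKT2 had both iNKT17 libraries there. Pxdc1 was open in iNKT1 at 17.7 and 21.2, above the 5.95 and 6.80 of iNKT2 and below the 98.1 and 89.3 of iNKT17.

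The 10 largest distal differences toward iNKT17 were in introns of Dhx37, 4930519G04Rik, Slc22a15, Actn2, BC053393, Epas1, D930020B18Rik and Synj2 and near Synm and Prss52, with sizes from 5.21 to 11.14 on the log2 scale. The Dhx37 intron had 0.0723 and 0.333 in iNKT2 and 190 and 197 in iNKT17, and 0.748 and 0.191 in iNKT1. The intron of Epas1, which encodes the hypoxia factor HIF-2α, had 0.934 and 1.69 against 159 and 150 (difference -6.94 ± 0.31). Actn2, an α-actinin found in muscle and on the list of iNKT17 genes, had 1.29 and 1.53 against 170 and 157 (difference -6.87 ± 0.24). The region near Prss52 was the brightest of the 10, with 6.32 and 7.42 against 248 and 259. In all 10, both iNKT1 libraries were at or below 6.61, and near Prss52 they had 5.24 and 6.61, close to the values of iNKT2.

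Loci were taken as a protein-coding gene with 10 kb on either side. Of 15237 loci with a tested region, 2415 held a region higher in iNKT2, 2313 a region higher in iNKT17, and 402 held both. At least 5 regions in the direction of iNKT2 and none in the other were found at 66 loci, and the converse at 118. Inpp4b had the most toward iNKT2 among single genes, 21 of 38, followed by Chn2, which encodes a regulator of Rac, with 18 of 56. Fgfr2 also had 18, of 105, with 7 in the other direction, but its gene model (chr7:130162451-133123350) is long and also overlaps Tacc2. These calls are therefore not of Fgfr2 alone. Rptor, the scaffold of the growth kinase complex mTORC1, had 13 of 27, and Zfp536 13 of 17. Gse1 had 12 of 41, and Arsb and Tmod1 11 of 15 and 11 of 12. After Il1r1 and Blk, the loci richest in calls toward iNKT17 were Ubac2 with 16 of 52, Znrf1, a ubiquitin ligase, with 15 of 43, and Myo16 and Rasgef1b with 14 of 14 and 14 of 23. Gm20388, a gene model that spans several annotated genes, Gse1 and Crispld2 among them, held 27 and 34 of 358 regions and led both counts. Loci with at least 5 tested regions, every one of them called, numbered 3 toward iNKT2, Ccl5, Stra6 and Zfp683, and 18 toward iNKT17, among them Myo16, Pxdc1, Ccr6 and Serpinb1a.

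Called distal regions also lay in runs. Joining neighbors by the gap customary for stitching super-enhancers gave 29 runs of at least 5 regions toward iNKT2, with 190 regions, and 68 toward iNKT17, with 476. The longest toward iNKT2 was at Ugcg, the enzyme that makes glucosylceramide, with 16 regions over 63.2 kb and medians of 11.7 in iNKT2, 2.95 in iNKT17 and 18.2 in iNKT1. A run of 10 regions over 48.1 kb covered Kif3a, Il4 and Il13, with medians of 35.9, 9.24 and 27.1 in the same order. Rptor and a stretch near Cwc27 had 9 each. Tmod1 and Zfp683, the gene of the tissue-residency factor Hobit, had 8 each, but their iNKT1 medians were 2.31 and 41.4. Toward iNKT17, the run at Il1r1 held 21 regions over 80.4 kb, with medians of 38.5 in iNKT17, 0.442 in iNKT2 and 0.401 in iNKT1, and Blk 18 over 45.7 kb. Emb and Ccr6 had 12 each. Runs of 11 lay at Sfi1, near Fam50b, at Gpr183 and Ubac2, at Cnnm2 and at Myo16. The Sfi1 run was faint in size, with a median log2 difference of -1.83, and 2 of its 11 regions were also called in Hivep3-/- cells, against 11 of 11 at Myo16.

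Receptors for cytokines divided between the subsets by gene. Of 272 regions at 30 receptor genes, 24 (8.82%) were higher in iNKT2 and 58 (21.3%) in iNKT17, beside 7.72% and 8.49% of all tested regions. Most of the calls toward iNKT17 lay at Il1r1, with 22, and Il23r, with 12, and 12 of the 30 genes had no called region. Toward iNKT2, Il6ra had 7 of 21, Il12rb2 7 and Il10ra 5, as given above, and Il2rb, Il6st, Il21r, Ifngr2 and Il23r had 1 each. The Il6ra intron, of the IL-6 receptor, had 42.4 and 35.2 against 6.48 and 5.37, and 5.75 and 8.44 in iNKT1 (difference 2.71 ± 0.29). Toward iNKT17 they included Il17re with 3 of 4, at 2.93 and 2.34 against 43.7 and 40.0 at its promoter, Tgfbr2 with 6 of 27, Il2ra with 4 of 13 and Il7r with 3 of 8. Il2rb, whose product CD122 was used in the sort and is low on both subsets, had 163 and 185 at its promoter in iNKT2 and 268 and 280 in iNKT17, a difference of -0.66 ± 0.08.

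For chemokine receptors, 16 of 152 regions (10.5%) were higher in iNKT2 and 11 (7.24%) in iNKT17, shares near the 7.72% and 8.49% of all tested regions. Ccr9, the receptor for the thymic and gut chemokine CCL25, held 8 of the iNKT2 calls among 13 regions. Its intron had 27.1 and 28.1 in iNKT2, 1.58 and 2.16 in iNKT17, and 23.2 and 24.7 in iNKT1 (difference 3.90 ± 0.21), while its promoter was not called, at 9.40 and 10.7 against 11.4 and 12.3 (difference -0.24 ± 0.20). Ccr4 had 2 of 11 and Ccr7 1 of 11 higher in iNKT2. Cxcr6, a receptor of resident T cells, had 1 of 13 higher in iNKT17.

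Genes of early and naive-like T cells had 23 of 215 regions (10.7%) higher in iNKT2 and 14 (6.51%) higher in iNKT17, also near the shares of all tested regions. Lef1, a TCF family factor of immature T cells, had 6 of 21 higher in iNKT2, 1 of them an intron region at 20.4 and 24.5 against 1.41 and 1.55, and 1 higher in iNKT17, 39.1 kb from a start, at 0.501 and 0.394 against 31.0 and 23.9. Bach2 and Foxo1, which maintain naive and quiescent cells, went the other way, with 5 of 36 and 4 of 14 regions higher in iNKT17. Tcf7, which encodes TCF-1, had none of 12 called. Over the TCF, LEF, E and Id factors, 10 of 83 regions (12.0%) were higher in iNKT2 and 3 (3.61%) in iNKT17, beside 7.72% and 8.49% of all tested regions.

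AP-1 and related genes were open in both subsets at their promoters, and some of them had regions that were more open in iNKT17. Of 165 regions, 26 (15.8%) were higher in iNKT17 and 1 (0.606%) in iNKT2, beside 8.49% and 7.72% of all tested regions. Of the 18 genes, 11 had no called region, and the median log2 difference of the list was -0.26. Fos had 7 of 11 and Atf3 6 of 13. The largest at Fos, 3.82 kb from its start, had 31.4 and 21.7 in iNKT2, 196 and 211 in iNKT17, and 101 and 100 in iNKT1 (difference -2.96 ± 0.14), whereas its promoter had 85.8 and 77.9 against 137 and 118. Fosb had 4 of 9 and Junb 1 of 11. AP-1 genes are also induced by handling of cells, and the part of that was not tested. Among factors induced by the T cell receptor, 5 of 129 regions (3.88%) were higher in iNKT2 and 10 (7.75%) in iNKT17. Both shares were under the 7.72% and 8.49% of all tested regions. Nfatc2 held 4 of the calls toward iNKT17, the largest at 9.18 and 9.90 against 129 and 147 (difference -3.85 ± 0.18).

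Nuclear receptors other than Rora were also called. Over the list of 12, Rora included, 10 of 162 regions (6.17%) were higher in iNKT2 and 36 (22.2%) in iNKT17, beside 7.72% and 8.49% of all tested regions. The latter lay mostly at Rora, with 13, and at a list member not reported here. Outside these, few were called toward iNKT17: 3 of 8 at Nr1d1, 1 of 3 at Nr1d2, 1 of 12 at Nr3c1 and those of Rara below. Nr1d1 and Nr1d2, the circadian repressors REV-ERBα and REV-ERBβ, had regions at 0.481 and 0.580 against 67.0 and 76.5 and at 0.758 and 0.685 against 37.4 and 49.2. Rara, a retinoic acid receptor, had 4 of 33 higher in iNKT17, while its partner Rxra had 3 of 19 higher in iNKT2. For integrins and adhesion genes, 8 of 138 regions (5.80%) were higher in iNKT2 and 6 (4.35%) in iNKT17, both under the shares of all tested regions.

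**Figure D4:**
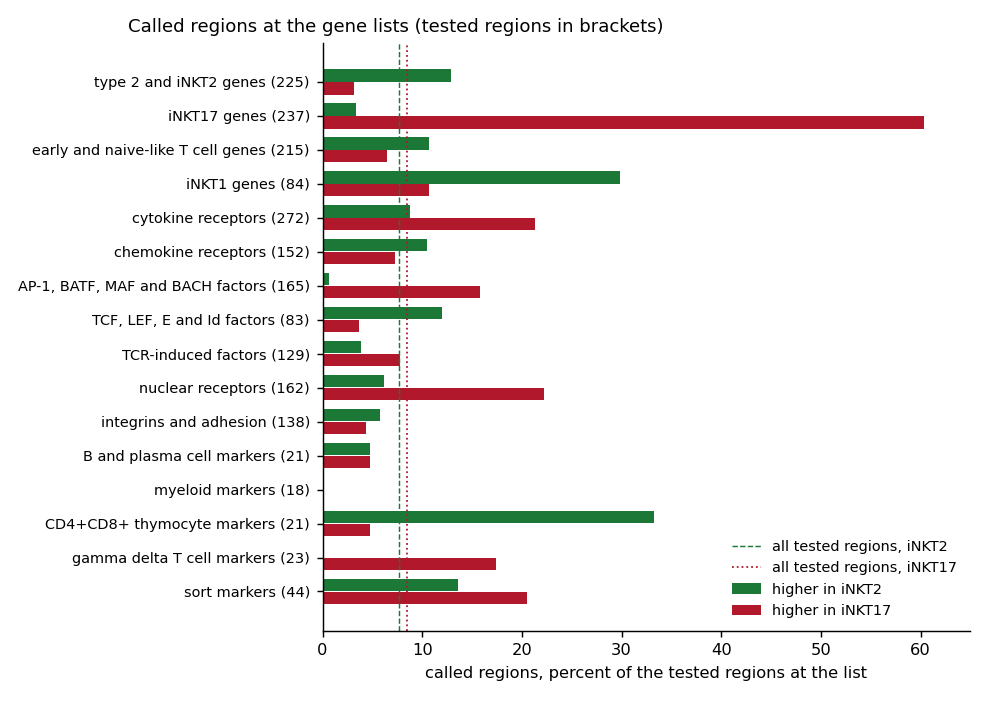
Share of the tested regions at each of 16 gene lists that was higher in iNKT2 (green) or in iNKT17 (red), with the number of tested regions in brackets and the shares of all tested regions as dashed (7.72%) and dotted (8.49%) lines. The iNKT17 genes stand at 60.3% in red and the iNKT1 genes at 29.8% in green.

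Markers of other cells were examined in the same libraries, where 7.72% of all tested regions were higher in iNKT2 and 8.49% in iNKT17. Myeloid markers had none of 18 regions called, with promoter sums of 32.4 and 39.6 in iNKT2 and 43.7 and 46.5 in iNKT17 over 2 promoters, and Csf1r, Itgam and Adgre1 had no tested region. B and plasma cell markers had 1 of 21 called in each direction, and Ms4a1, Blnk and Jchain had no tested region. Of the CD4+CD8+ thymocyte markers, 7 of 21 regions (33.3%) were higher in iNKT2, 5 at Arpp21 and 2 at Cd4, and 1 (4.76%) in iNKT17, and Rag1, Cd8a and Cd8b1 had no tested region. The summed level at their 2 promoters was 37.4 and 31.2 in iNKT2, 5.6 and 6.97 in iNKT17, and 13.3 and 13.8 in iNKT1. Among the gamma delta T cell markers, 4 of 23 regions (17.4%) were higher in iNKT17, at Tcrg-C1, Tcrg-V6 and Sox13, with 36.8 and 37.0 summed over 3 promoters in iNKT17 and 18.3 and 18.7 in iNKT2. Tcrg-C4 held 11 of the 23 regions, with none called and 10 of them leaning toward iNKT2. The median log2 difference of the list was 0.25, and Trdc and Trdv4 had no tested region. The part of such cells in the calls of either side was not tested.

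Short motifs differed most for the ROR letters. TNGGTCA stood in 41.4% of the regions higher in iNKT17, in 15.0% of those higher in iNKT2 and in 18.5% of all tested regions. The share was larger where the difference was larger, from 32.1% of the iNKT17 regions at 3- to 8-fold to 41.6% at 8- to 32-fold and 57.9% at 32-fold or more, whereas on the iNKT2 side it was 15.1%, 14.6% and 14.9%. At least 2 copies were found in 8.16% of the iNKT17 regions, 1.23% of the iNKT2 regions and 1.58% of the regions not called. Seen from the motif, 19% of the 10881 regions that hold it were higher in iNKT17, against 6.10% of those without it. Of the 10 largest distal regions toward iNKT17, 7 held it in their 500 bases, and 3 of the 10 largest promoters did, while it was in 1 and 2 of the matching iNKT2 regions. The promoters of Il17a and Il17f had none.

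No motif of the 10 searched stood out as far on the iNKT2 side. TCAAAGG, of TCF and LEF, was in 15.0% of the regions higher in iNKT2, 10.7% of those higher in iNKT17 and 9.51% of all. AGATAAG, of GATA factors, was in 9.79%, 7.46% and 6.13%, AGGTGTG, of T-box factors, in 15.8%, 11.1% and 11.5%, and TTTTCCA, of NFAT, in 12.7%, 10.8% and 10.1%. GCGTGGG, of Egr factors, was less common in both directions than in all tested regions, at 4.71% and 3.08% against 7.14%. Among regions over 1000 bp from any start it stood in 4.44%, 2.71% and 4.32%, so that there only the iNKT17 share was lower. AACCACA, of Runt factors, stood at 20%, 24.6% and 16.9%, TGANTCA, of AP-1 and related bZIP factors, at 19.1%, 22.3% and 15.7%, AGGAAGT, of ETS factors, at 24.7%, 21.7% and 20.8%, and CAGCTG, an E-box, at 29.3%, 26.0% and 27.0%. Promoters are rarer among the called than among the tested regions, and over distal regions alone several gaps closed. In the same order, distal shares were 20.8%, 25.4% and 21.2% for Runt and 19.5%, 23.0% and 19.2% for bZIP. For ETS they were 25.2%, 22.3% and 24.5%, for TCF 15.4%, 11.0% and 11.2%, and for GATA 10.2%, 7.79% and 7.54%. The ROR letters kept their gap, at 15.1%, 42.5% and 20.5%. These are matches on either strand of 500 bases, none of which contains another, and they are descriptions and not sites of binding. Called regions had less GC, with medians of 47.8% in iNKT2 and 46.4% in iNKT17 against 50.4% of all tested regions, and the part of GC in the shares of the motifs was not tested.

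**Figure D5:**
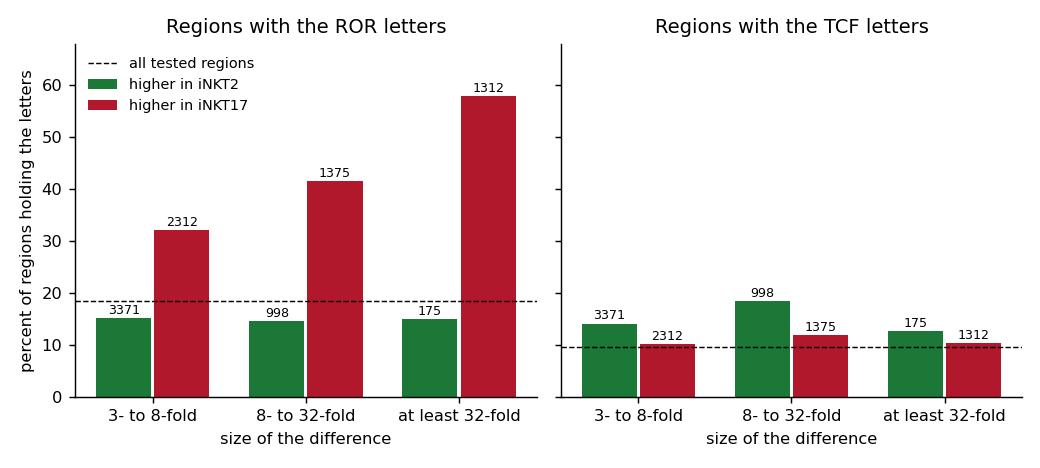
Percent of called regions that hold the ROR letters (left) or the TCF letters (right) by size of the difference, for regions higher in iNKT2 (green) and in iNKT17 (red), with the number of regions above each bar and the share of all tested regions as a dashed line. The ROR share reaches 57.9% in the iNKT17 regions of at least 32-fold and stays between 14.6% and 15.1% on the iNKT2 side.

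The same contrast was made in Hivep3-/- cells, whose libraries the calls above did not use, though all groups share 1 estimate of the spread. There, 4291 of 58563 tested regions (7.33%) were higher in iNKT2 and 4834 (8.25%) in iNKT17. Of the 4544 regions higher in wildtype iNKT2, 3729 could be tested, and the others had a mean under 5 in both Hivep3-/- subsets. Of those tested, 3722 differed in the same direction and 2910 were called again. These were 78.0% of those tested, 64.0% of the 4544 and 67.8% of the Hivep3-/- calls. Of the 4999 higher in wildtype iNKT17, 4845 could be tested, 4836 had the same direction and 4060 were called. These were 83.8% of those tested, 81.2% of the 4999 and 84.0% of the Hivep3-/- calls. None was called in the other direction. All 40 of the promoter and distal regions with the largest differences were called in both genotypes. At the Il4 promoter the log2 difference was 3.34 in Hivep3-/- cells, at Il17f -8.01 and at the Il10ra intron 2.67.

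The subset difference itself differed between genotypes in 590 regions (1.00%) under the limits used above, and in 1951 by the adjusted p alone. This count was 31 with a pseudocount of 5, and 329, 299 and 379 without wildtype iNKT2 replicate 1, iNKT2 replicate 2 and iNKT17 replicate 1. In the regions higher in iNKT2 the wildtype difference was the larger in 253 and the smaller in 22, and in the regions higher in iNKT17 the larger in 111 and the smaller in 29. These regions were chosen by their wildtype difference, which favors a larger difference in wildtype cells, so that the split is a description only. The promoter of Nkg7, a gene of cytotoxic granules, had 14.8 and 12.2 in wildtype iNKT2 and 2.44 and 1.96 in iNKT17, but 2.72 and 2.77 against 3.68 and 1.95 in Hivep3-/- cells, a difference of differences of 2.58 (adjusted p = 0.00516). Near Cxcr3, wildtype iNKT2 had 26.4 and 27.3 and iNKT17 0.752 and 0.450, and Hivep3-/- cells 9.70 and 7.90 against 3.34 and 1.95. A Plac8 promoter region had 15.4 and 14.3 against 2.26 and 1.55 in wildtype cells, and 3.16 and 4.45 against 4.58 and 1.76 in Hivep3-/- cells (difference of differences 2.59, adjusted p = 0.035). The Nkg7 and Plac8 regions had a mean under 5 in both Hivep3-/- subsets, so that the contrast within Hivep3-/- cells was not tested there.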

How the data were processed

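ATAC-seq libraries of thymic iNKT cells were used as deposited, 2 for each of 3 subsets in C57BL/6 and Hivep3-/- mice. The log2 values were deposited by the authors, who trimmed reads to 50 bp with Trimmomatic 0.39, mapped them to mm10 with the ENCODE pipeline, merged the peaks of all libraries, without the Y chromosome and blacklisted regions, into 500 bp regions, counted transposase insertions with chromVAR and normalized the counts per kilobase with voom. Linear values are 2 to the power of these. The depth of the libraries is unknown, since the normalization set their linear sums nearly equal (1917338 to 1919037 in the 4 compared). It limits faint regions most: 178 to 272 regions of a library share its lowest value.

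A region was tested if the linear mean of 1 of the compared subsets reached 5, which left out 4443. The lowest tested region had 5.0018 in its higher subset and the highest one left out 4.9989. All 12 libraries were fitted with 6 group means in limma 3.58.1 (R 4.3.3), with empirical Bayes moderation and a variance trend, 6 residual and 7.17 prior degrees of freedom and Benjamini-Hochberg adjustment over all tested regions. Calls needed a 3-fold difference or more with an adjusted p below 0.1. The SE is that of the fit. The procedure was tested on simulated data. With 2 libraries per subset, p-values rest on the spread between libraries of a group, pooled over all 6 groups and moderated over the regions. They do not measure the spread of the compared libraries alone.

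Named regions were the 10 promoter regions (within 1000 bp of a protein-coding start) and the 10 regions over 1000 bp from any start in each direction with the largest difference of log2(mean + 5), the 8 loci and 5 runs (of distal regions, joined by that gap, ties kept) with most calls, and members of 16 gene lists with a called region or marker role. Loci and lists use GENCODE vM21. The comparison, lists and motifs were chosen with earlier results of these data known. Sample titles give the subsets of a genotype the same mouse numbers, which pairs the libraries, and the deviations of same-numbered iNKT2 and iNKT17 libraries from their means correlated at r = 0.192 over the tested regions. Alternatives were other filters, pseudocounts, normalizations, thresholds and sample sets, the mouse as a block, and leaving out each of the 4 compared libraries. The Hivep3-/- libraries were not left out in turn. Python 3.11.15, pandas 2.3.3, numpy 2.4.6, pysam 0.24.0 and matplotlib 3.10.9 were used. Some named genes are not reported here.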

Additional observations from a re-analysis of the deposited data

Results flagged for a closer look

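In 17 of 324 named regions, the difference between iNKT2 and iNKT17 cells differed between C57BL/6 and Hivep3-/- mice by the interaction term of the limma fit (3-fold or more, adjusted p below 0.1). Most of these regions were named for their wildtype difference, which favors a larger difference in wildtype cells. Their number is therefore not set against that of all tested regions, and the direction of the values is a description only. Values are the wildtype log2 difference, iNKT2 minus iNKT17, minus that of Hivep3-/- cells.

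Of the 18 genes on the iNKT1 list, 5 had such a region, with the wildtype difference more toward iNKT2 in each. All 5 regions were named for a wildtype difference toward iNKT2, which favors this direction. The value was 2.58 at the Nkg7 promoter, 3.75 at a region 2.80 kb from Cxcr3, 1.78 at the Xcl1 promoter, 2.13 in an intron of Tbx21 and 2.31 in an intron of Hopx. At the Tbx21 intron the iNKT2 libraries had 12.2 and 16.7 insertions per kb in wildtype and 7.42 and 3.74 in Hivep3-/- mice, beside 96.4 and 105 in wildtype iNKT1 cells.

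Other regions higher in iNKT2 gave 1.72 at the Prkacb promoter, 2.59 at the Plac8 promoter, 3.81 in an intron of Bach2 and 3.01 at a region 6.58 kb from Arsb. Near Arsb, wildtype iNKT2 cells had 26.4 and 25.2 and Hivep3-/- iNKT2 cells 3.34 and 2.41. The Bach2 intron was faint, with 5.46 and 9.24 in wildtype iNKT2 and 0.385 and 0.123 in wildtype iNKT17. In Hivep3-/- cells it had 1.99 and 3.36 in iNKT2 and 0.934 and 1.32 in iNKT17.

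Among regions higher in iNKT17, the difference was larger in wildtype cells near Synm (-3.02), in an intron of Serpinb1a (-2.09), 6.19 kb from Il7r (-2.60), in an exon of Ncbp3 within the Itgae locus (-1.82) and in an intron of Rasgef1b (-1.71). It was smaller in wildtype cells at the Blk promoter (2.22) and in an intron of Sox13 (2.98). In several of these regions the iNKT2 values were faint. Near Synm they were 0.123 and 0.115 in wildtype and 1.15 and 0.934 in Hivep3-/- mice, while iNKT17 had 112 and 113 and 116 and 125. In the Serpinb1a intron iNKT2 had 0.191 in both wildtype libraries and 1.29 and 0.58 in Hivep3-/- mice. In the Sox13 intron iNKT2 had 1.1 and 1.16 in wildtype and 0.0723 and 0.12 in Hivep3-/- mice. At the Blk promoter, iNKT2 cells had 2.85 and 2.61 in wildtype and 0.542 and 0.498 in Hivep3-/- mice, with iNKT17 cells at 56.1 and 56.3 and at 49.5 and 50.0.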

How the results depend on the processing

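Counts are given for regions higher in iNKT2, higher in iNKT17, each of these also called in Hivep3-/- cells, and with a difference between genotypes, which were 4544, 4999, 2910, 4060 and 590. With a pseudocount of 5 they were 957, 2319, 430, 1765 and 31. At 2-fold, regions higher in iNKT2 numbered 8064, those of them also called in Hivep3-/- cells 5562, and genotype differences 1283. With limma's treat test at 1.5-fold these were 7383, 4977 and 64. Regions higher in iNKT17 numbered 7328 and 6849 in these settings, fewer than those higher in iNKT2. The genotype differences numbered 356 at an adjusted p under 0.05, and 299 (without iNKT2 replicate 2), 329 (without iNKT2 replicate 1), 379 (without iNKT17 replicate 1) and 463 (without iNKT17 replicate 2) when a wildtype library was left out. Leaving out a library gave 4515 to 4615 and 4926 to 5067 wildtype calls, and 2813 to 2898 and 3969 to 4078 also called in Hivep3-/- cells. With the replicate block, which pairs the libraries by mouse, 4547 and 5004 regions were called and 842 differed between genotypes, and no named region lost its call. No direction was reversed among the named regions, of which 309 to 324 had a value under each alternative, and 16 and 70 fell short of the threshold with a pseudocount of 1 and of 5. The table holds no insertion counts, so faint regions cannot be weighed by depth, and replication is limited to 2 libraries per subset.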
